A study of Mus musculus with 22 samples.

Results

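The integrated stress response and its amino acid programme were followed through 44 genes: ATF4 and its partner transcription factors, feedback genes, enzymes of serine, one-carbon and other amino acid synthesis, amino acid transporters and the cytosolic aminoacyl-tRNA synthetases. The genes were chosen as known members of this pathway with results of these data in view, above all the difference between fresh and cultured natural killer (NK) cells, and all 44 were found among the 78298 genes of the count tables. Levels were available in 22 RNA sequencing libraries of mouse cells and tumours. NK cells from spleens of female and male mice were sequenced after a 24 h monoculture with IL-2 (interleukin-2, a growth factor of these cells) and fresh without treatment, with 2 libraries per sex each. NK cells of each sex were also kept for 24 h with IL-2 beside Panc02, a mouse pancreatic cancer line, which gave 2 co-culture libraries per sex. Panc02 tumours grown as syngeneic allografts gave 4 libraries from female and 4 from male hosts, and Panc02 cultured alone gave 2. Labels give no strain, age or genetic change for any group, state no separation of the cells of the co-cultures, and list no IL-2 for cultured Panc02. They also do not say that each library came from its own animal or culture, so a p-value here reflects only how far these libraries scatter, which may be technical. Sample numbers name the libraries below: NK cells have numbers 1 and 2 (female) and 4 and 5 (male), and allografts have 1 to 4 (female host) and 5 to 8 (male host).

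When amino acids run short, when the endoplasmic reticulum is loaded with unfolded protein or when a cell is otherwise stressed, kinases phosphorylate the initiation factor eIF2. General translation then slows while the messenger RNA of ATF4 is translated more, and ATF4, with partners of the C/EBP family, turns on genes for making, importing and charging amino acids. In lymphocytes the same genes are also part of the growth programme that follows activation, when protein synthesis rises. Transcript levels do not report eIF2 phosphorylation or ATF4 protein, neither of which was measured.

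The DNA word to which ATF4 and C/EBP proteins bind together, the CARE, was searched in the 250 bases before the start of each gene (RefSeq promoters, GRCm38.p6), because ATF4 is known to act through such sites. Promoters were matched for 37 of the 44 members. The letters TGATGNAA, on either strand, were found in 9 of the 37 members (24.3%) and in 3.91% of all 27025 genes with a promoter in that table. The 9 were Atf3, Chac1, Slc7a11, Asns, Gars1, Nupr1, Aars1, Pycr1 and Vldlr. A different word, the cyclic AMP response element TGACGTCA, was found in 1 of the 37 members (2.7%), Ppp1r15a, against 1.77% of all genes, and no single stretch can match both words. The members were chosen as known members of the ATF4 pathway, so these shares are a description and no independent evidence. A match says that the letters are present and does not show that a protein binds there. The 4 sequences shown, with the word in capitals, belong to genes whose levels behaved differently below. They are Chac1 (chr2:119350992-119351241, plus strand), Slc7a11 (chr3:50443614-50443863, minus strand), Asns (chr6:7693210-7693459, minus strand) and Nupr1 (chr7:126625471-126625720, minus strand), each read 5′ to 3′ towards the start of the gene.
Chac1: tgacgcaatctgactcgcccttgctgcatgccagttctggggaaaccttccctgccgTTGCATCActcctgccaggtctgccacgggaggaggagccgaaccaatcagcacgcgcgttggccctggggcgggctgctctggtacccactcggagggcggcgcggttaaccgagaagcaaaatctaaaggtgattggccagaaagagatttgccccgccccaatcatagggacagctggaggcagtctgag
Slc7a11: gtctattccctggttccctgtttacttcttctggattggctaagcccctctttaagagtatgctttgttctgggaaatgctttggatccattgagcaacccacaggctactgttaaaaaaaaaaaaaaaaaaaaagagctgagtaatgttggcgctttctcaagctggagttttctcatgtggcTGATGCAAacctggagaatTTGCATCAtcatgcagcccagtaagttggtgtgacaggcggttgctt
Asns: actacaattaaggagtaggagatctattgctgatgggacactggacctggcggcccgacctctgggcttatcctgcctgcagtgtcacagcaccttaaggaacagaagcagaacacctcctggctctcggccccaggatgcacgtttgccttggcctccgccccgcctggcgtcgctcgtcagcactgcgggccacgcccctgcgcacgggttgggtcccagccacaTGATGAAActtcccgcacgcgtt
Nupr1: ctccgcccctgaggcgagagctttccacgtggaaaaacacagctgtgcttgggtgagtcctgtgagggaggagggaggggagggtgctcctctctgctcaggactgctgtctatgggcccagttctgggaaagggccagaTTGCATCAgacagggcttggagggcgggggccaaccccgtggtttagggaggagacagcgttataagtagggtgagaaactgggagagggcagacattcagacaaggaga

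Slc7a11 was the only member to hold the word 2 times in this window, a count reached by 13 of the 27025 genes. Its copies lie on opposite strands and start 66 and 47 bases before the start of the gene. In Chac1 the word starts 193 bases before the start, in Nupr1 and Atf3 110 bases before it, and in Asns 23 bases before it. Vldlr and Slc7a11 carry the word and were not higher in cultured NK cells, while Trib3, with no match to these letters in its window, was.

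Total counts were 13025549 to 46842646 per library. The defining NK markers (Ncr1, Klrb1c, Prf1, Gzma, Eomes and Nkg7) summed to 6692 to 7608 CPM (counts scaled to a common library total) in monocultures and 6495 to 7544 CPM in fresh cells, with 3 of 6 higher and 2 lower. In cultured Panc02, 5 of those 6 were at 0 and Eomes stood at 17.7 and 19.7 CPM. Keratins 8, 18 and 19 and E-cadherin marked Panc02, in which Epcam was at 0.855 and 1.11 CPM. From 296 genes restricted to NK cells, the NK share of the RNA was 2.71% and 3.35% in the co-cultures with female cells and 2.05% and 1.72% in those with male cells, so the co-culture libraries were compared with cultured Panc02. In these bulk samples, fewer cells of a type and less RNA of a gene per cell cannot be told apart.

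Compared per transcript length (TPM, read counts scaled for length and depth), the same gene had the highest mean in NK cells of both conditions. Atf4 (ENSMUSG00000042406, chromosome 15, 80139385 to 80141742, GRCm39) averaged 833 ± 51.2 TPM in monocultured and 269 ± 11.6 TPM in fresh NK cells (SD, n = 4 each). In monocultures it was followed by Slc7a5 at 769 ± 22.8 TPM, Shmt2 at 542 ± 31.2 TPM and Slc3a2 at 529 ± 13.4 TPM, and in fresh cells by Ddit4 at 196 ± 84 TPM. Ddit4 spread so widely that Atf4 need not lead in every fresh library. Cultured Panc02 had another order: Phgdh, the enzyme that commits glucose carbon to serine, led at 656 ± 14.5 TPM, before Atf4 at 443 ± 7.91 and Psat1 at 417 ± 3.15 TPM (SD, n = 2). In allografts Atf4 led again, at 217 ± 35.8 TPM, followed by Atf5 at 177 ± 20.9 TPM (SD, n = 8), and their ranges overlapped. At the low end of monocultured NK cells stood Slc7a11 at 0.205 ± 0.0682 TPM, Vldlr at 0.153 TPM and Cbs at 0.

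**Figure D1:**
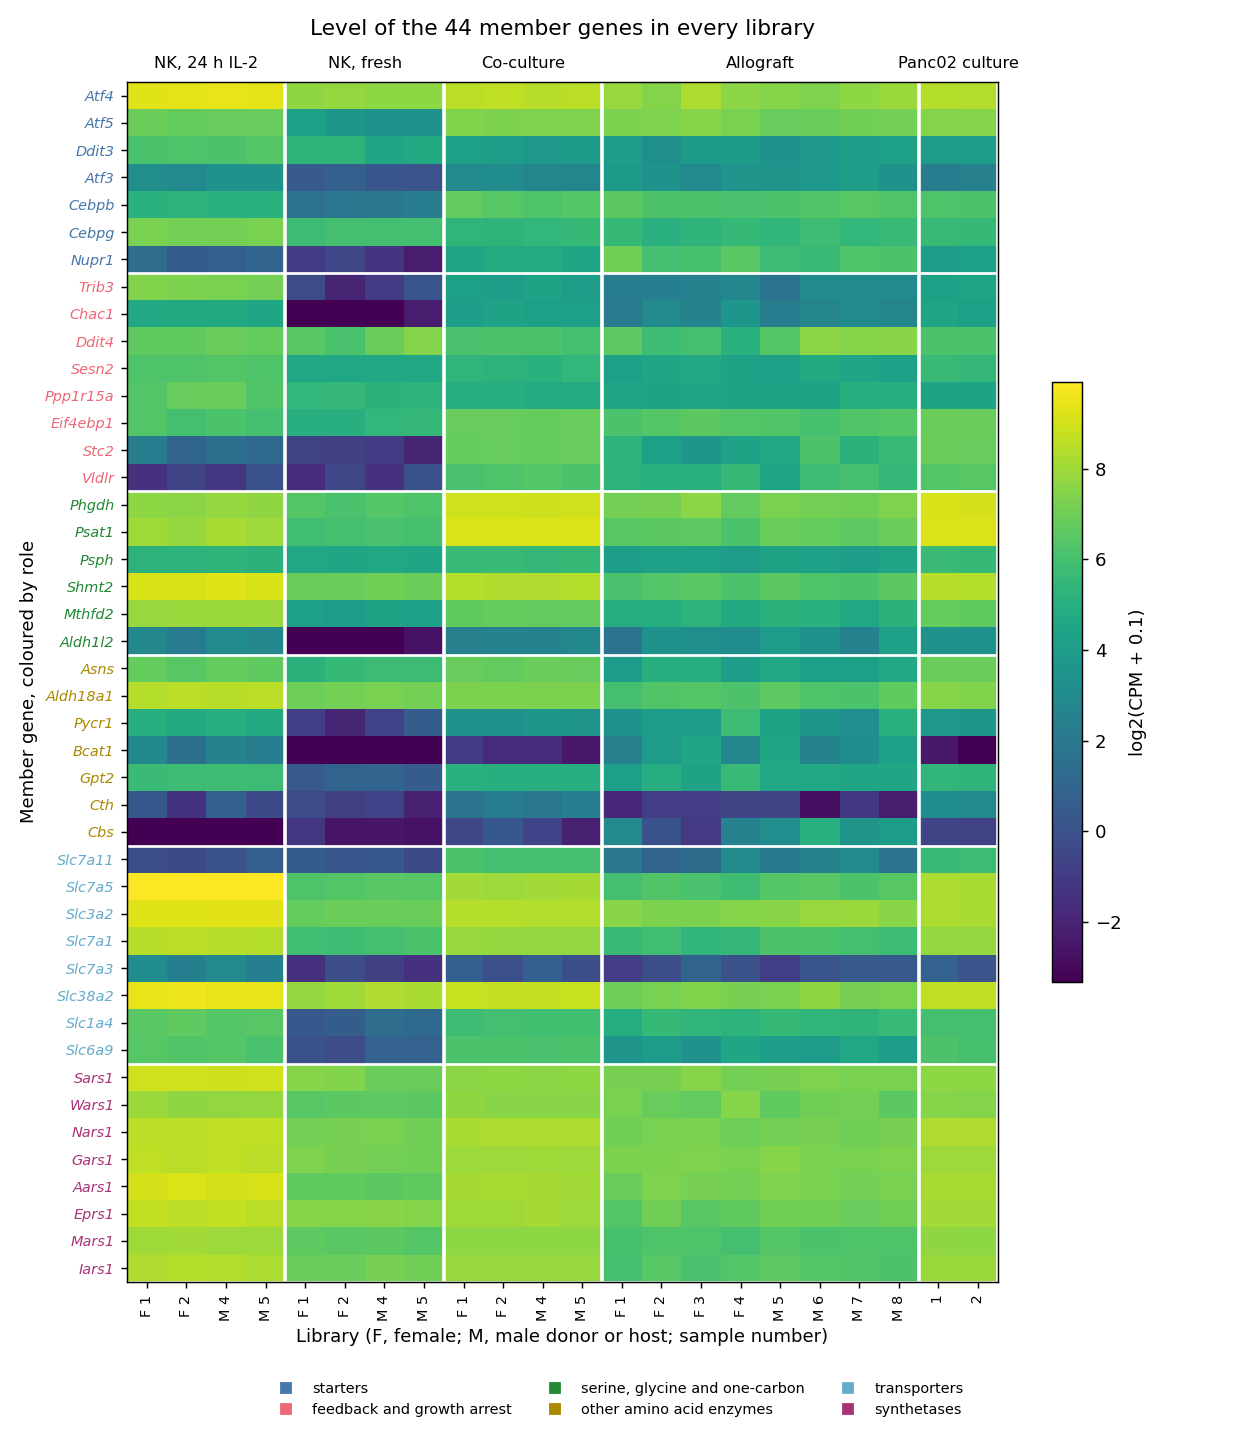
Level of the 44 member genes (rows, grouped and coloured by role) in each of the 22 libraries (columns, grouped by condition), as the logarithm to base 2 of CPM + 0.1. In 39 of the 44 rows all NK monocultures are brighter than all fresh NK cells, and Cbs, Vldlr, Slc7a11 and Cth are dark in both. The genes were selected on this contrast, and the same share over all genes was not computed.

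Monocultured against fresh NK cells asks what a day in culture with IL-2 goes with. The genes were selected on this contrast, so its differences are described and not tested. Of the 43 members with enough reads to be fitted, 39 were at least 2-fold higher and 0 at least 2-fold lower in monocultures, where 9.04% of all 19623 fitted genes were at least 2-fold higher and 16.2% at least 2-fold lower. The median log2 fold change of the members was 1.84, and it was also 1.84 with Bcat1, which had no read in fresh cells, set to its lower bound. The median of all genes was 0.01. Every monoculture was above every fresh library for 39 of the 44 members. The share of all genes with such a gap was not computed, so this count has no baseline. The exceptions among the members were Ddit4, Vldlr, Cth and Slc7a11, whose groups overlapped, and Cbs, which was lower. IL-2 and the time in culture cannot be told apart in this contrast. The labels' protocols name oligo(dT) beads for positively sorted NK cells and a phenol reagent for cell experiments. They do not say which was used for fresh and which for monocultured NK cells. A difference in RNA extraction, if any, cannot be told apart here either.

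All 7 transcription factors of the programme were higher. Atf4 had 619, 668, 696 and 651 CPM in monocultures (samples 1, 2, 4 and 5) and 209, 228, 205 and 202 CPM in fresh cells, a log2 fold change of 1.75 (SE 0.06). Ddit3, which encodes the stress factor CHOP (ENSMUSG00000025408, chromosome 10, 127126643 to 127132157), had 72.6, 76.5, 74.3 and 84.2 CPM in monocultures, against 38.6, 39.1, 22.3 and 26.1 CPM in fresh cells, a log2 fold change of 1.43 (SE 0.08). The groups were apart for both genes, and the fresh female libraries held more Ddit3 than the fresh male ones. Ddit3, Cebpg and Aars1 each share exon bases with another gene on the same strand, so reads there cannot be assigned with certainty. Of the others, Cebpb (3.37, SE 0.12), Atf5 (3.27, SE 0.10) and Atf3 (3.11, SE 0.20) had larger log2 fold changes, and Cebpg, a partner with which ATF4 pairs on DNA, had the smallest (1.39, SE 0.06). Nupr1, a small stress-induced nuclear protein, differed by 2.61 (SE 0.48) and remained at 1.33 to 2.60 CPM in monocultures.

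Feedback and growth arrest genes fell into those that were nearly silent in fresh cells and those already expressed there. Trib3, a pseudokinase that dampens ATF4 and CHOP (chromosome 2, 152179342 to 152185952), had 169, 156, 153 and 143 CPM in monocultures and 0.731, 0.154, 0.386 and 0.968 CPM in fresh cells, a log2 fold change of 8.00 (SE 0.19). Chac1, which degrades glutathione (chromosome 2, 119181710 to 119184862), had 25.3, 26.1, 26 and 22.8 CPM in monocultures, against no read in 3 fresh libraries and 0.108 CPM, 4 reads, in the fourth. Neither gene overlapped between groups. Sesn2, a leucine sensor that restrains the growth kinase mTORC1, differed by 1.80 (SE 0.07), Ppp1r15a, the phosphatase subunit that reverses eIF2 phosphorylation, by 1.41 (SE 0.14) and the translation repressor Eif4ebp1 by 1.00 (SE 0.09). Ddit4, another inhibitor of mTORC1, which also responds to low oxygen, stood apart: it had 104, 102, 119 and 110 CPM in monocultures and 87.9, 70.0, 120 and 178 CPM in fresh cells. Its monocultures were close together, while its fresh libraries spread to both sides of them (log2 fold change 0.10, SE 0.13). Stc2, a secreted glycoprotein, differed by 3.06 (SE 0.43) from a low level, and Vldlr, a lipoprotein receptor, was under 1 CPM in every NK library outside the co-cultures.

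Serine is made from a glycolytic intermediate by Phgdh, Psat1 and Psph in turn, and mitochondrial Shmt2, Mthfd2 and Aldh1l2 pass its carbon to folate. Psat1 (chromosome 19, 15882042 to 15924701) had 260, 225, 289 and 251 CPM in monocultures and 57.9, 64.6, 70.1 and 66.7 CPM in fresh cells, with a log2 fold change of 2.08 (SE 0.07). The groups were well apart, and Psph, the last step, had the smallest log2 fold change of the 3 (0.80, SE 0.09, against 1.49, SE 0.07, for Phgdh). Mthfd2 had 233 to 247 CPM in monocultures and 15.7 to 19.6 CPM in fresh cells (3.84, SE 0.07). Aldh1l2 had 6.91, 4.12, 8.21 and 6.87 CPM in monocultures and 2 reads in all in fresh cells.

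The cytosolic counterparts of the mitochondrial folate enzymes, which are not members, went the other way in edgeR's quasi-likelihood test with Benjamini-Hochberg adjustment. Genes outside the members, here and below, were also listed with earlier results of these data known. Their p-values are therefore not independent evidence. Mthfd1 had 57.4, 47.1, 62.2 and 55.5 CPM in monocultures, against 175, 196, 239 and 213 CPM in fresh cells, and fell by 1.79 on the log2 scale (SE 0.07, adjusted p = 9.44e-12). Shmt1 fell by 0.95 (SE 0.15, adjusted p = 5.76e-05). Mthfd1l, the mitochondrial relative of Mthfd1, rose by 0.44 (SE 0.06, adjusted p = 2.78e-05). Of 9 tested genes of the folate cycle and nucleotide synthesis, 2 rose and 6 fell, where 23.1% of all genes rose, 22% fell and 45.2% changed in either direction. Atic of purine synthesis fell by 1.94 (SE 0.09, adjusted p = 8.62e-11) and Tyms of thymidylate synthesis fell by 1.87 (SE 0.15, adjusted p = 5.05e-08).

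Among the other amino acid enzymes, Asns, which makes asparagine (chromosome 6, 7675169 to 7693254), had a modest difference, with 111, 88.8, 111 and 101 CPM in monocultures and 36.3, 46.1, 54.6 and 54.4 CPM in fresh cells (log2 fold change 1.22, SE 0.08). Larger ones were seen in Gpt2, the mitochondrial alanine transaminase (52.4 to 56.1 CPM in monocultures, 1.21 to 1.89 CPM in fresh cells), and in Pycr1 of proline synthesis (25.8 to 31.4 CPM in monocultures, 0.154 to 1.42 CPM in fresh cells), while Aldh18a1, which acts before it, differed by 1.47. Bcat1, the cytosolic branched-chain aminotransferase, had 7.18, 2.88, 6.02 and 4.69 CPM in monocultures and no read in fresh cells, which makes it at least 193-fold higher against a floor of 3 reads over the 4 fresh libraries. The 2 enzymes that make cysteine from homocysteine were low in both conditions. Cth was at 0.277 to 1.60 CPM in monocultures and 0.134 to 0.731 CPM in fresh cells, and Cbs had no read in monocultures and 17 reads in fresh cells.

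The transporters differed widely in their fold changes. Slc7a5, which imports large neutral amino acids, had 935 to 965 CPM in monocultures and 78.0 to 91.8 CPM in fresh cells (log2 fold change 3.59, SE 0.06), and its heavy chain Slc3a2 had 613 to 636 and 111 to 125 CPM (2.49, SE 0.06). Slc6a9, a glycine transporter, had 87.6, 79.3, 86.0 and 68.9 CPM in monocultures and 0.900, 0.768, 1.70 and 1.72 CPM in fresh cells. Slc1a4, a carrier of alanine, serine and cysteine, had 90.9, 101, 83.4 and 90.4 CPM in monocultures and 1.13, 1.38, 2.55 and 2.23 CPM in fresh cells. The log2 fold changes were 6.14 (SE 0.12) for Slc6a9 and 5.85 (SE 0.10) for Slc1a4. Slc7a11, the cystine transporter that shares the heavy chain with Slc7a5 (chromosome 3, 49846975 to 50398063), had 0.821, 0.692, 0.888 and 1.45 CPM in monocultures, against 1.35, 1.07, 1.16 and 0.645 CPM in fresh cells. Its groups overlapped at about 1 CPM (log2 fold change -0.06, SE 0.42). Cultured Panc02 had 50 and 54.5 CPM of it. The other 3 transporters, Slc38a2, Slc7a1 and Slc7a3, had log2 fold changes of 1.48, 2.65 and 4.15.

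All 8 member synthetases, which load amino acids onto transfer RNA in the cytosol, lay between 1.25 (Eprs1) and 2.54 (Aars1) on the log2 scale. The cytosolic synthetases and synthetase-complex proteins outside the list were mixed: of 15 tested, 4 rose and 4 fell, where 23.1% of all genes rose. The 8 members had been picked with this contrast in view, so no comparison between them and these 15 is drawn. Cars1 rose by 2.35 (SE 0.07, adjusted p = 1.69e-13), Yars1 by 1.81 (SE 0.07, adjusted p = 2.38e-12), Lars1 by 1.56 (SE 0.07, adjusted p = 2.32e-11) and Tars1 by 1.46 (SE 0.06, adjusted p = 7.41e-12). Farsa (fell by 0.49), Hars1 (fell by 0.43) and Kars1 (fell by 0.31) had smaller differences. Of 17 mitochondrial synthetases, 0 rose and 10 fell, among them Yars2, which fell by 0.71, and Tars2, which fell by 0.65. The median log2 fold change of the 17 was -0.51.

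**Figure D2:**
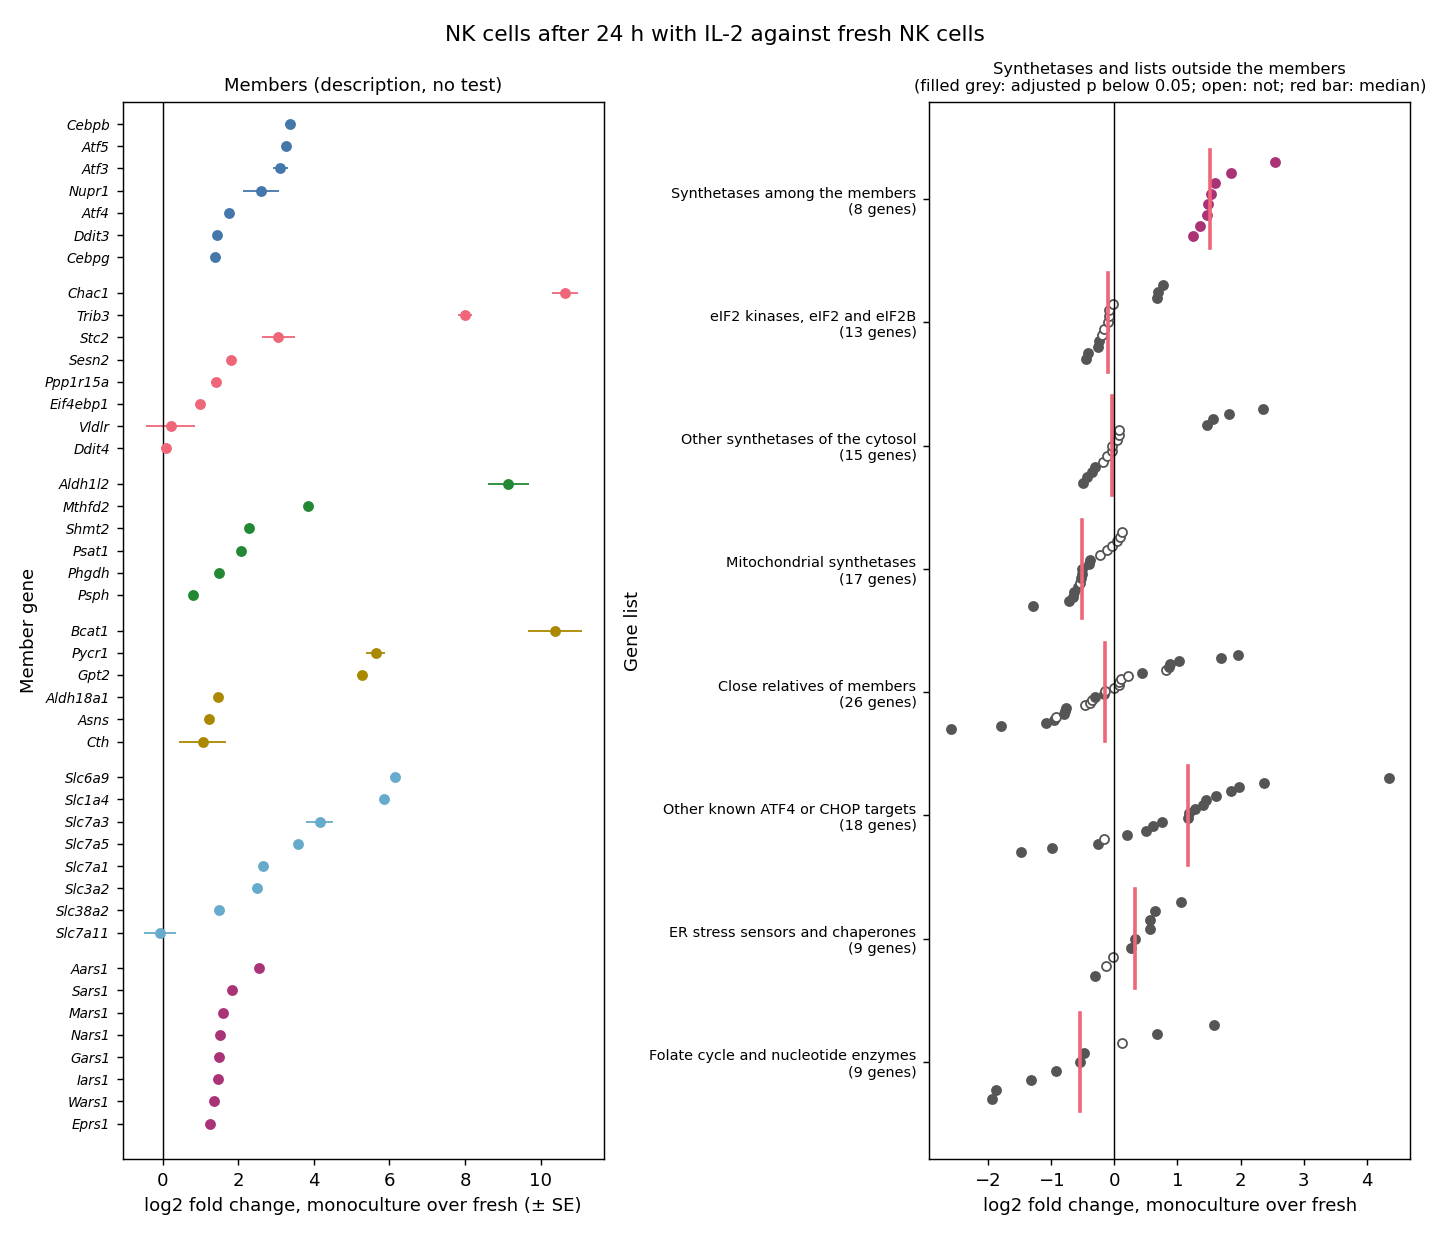
Log2 fold change of monocultured over fresh NK cells, for each fitted member by role with its standard error (left) and for the synthetases among the members and 7 gene lists outside them (right; each point is a gene, filled grey where adjusted p was below 0.05, and the bar is the median). Of the members, Slc7a11, Ddit4 and Vldlr lie near 0, and the mitochondrial synthetases lie mostly below it.

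Genes upstream of ATF4 were called in both directions. Of 13 genes for eIF2 kinases, eIF2, its exchange factor and their regulators, 3 rose and 4 fell (53.8%), against 45.2% of all genes. Their log2 fold changes lay between -0.45 and 0.77 with a median of -0.10, and 10 of the 13 were negative. Impact, which restrains the amino acid sensing kinase GCN2, rose by 0.77 (SE 0.07), Ppp1r15b, a constitutive subunit of the eIF2 phosphatase, by 0.70 (SE 0.06) and Eif2ak3, the kinase of the endoplasmic reticulum, by 0.67 (SE 0.08). Known targets of ATF4 or CHOP outside the list were called higher in 14 and lower in 3 of 18 cases, with a median of 1.17. Cdkn1a, the cell cycle inhibitor p21, had 163 to 193 CPM in monocultures and 8.90 to 9.90 CPM in fresh cells and rose by 4.34 (SE 0.08, adjusted p = 6.46e-16). Vegfa rose by 2.37 (SE 0.10, adjusted p = 3.34e-11) and Sqstm1, an autophagy receptor, by 1.97 (SE 0.06, adjusted p = 7.06e-13). Gadd45b fell by 1.47 (SE 0.15, adjusted p = 8.03e-07) and Pmaip1, which encodes the cell death protein Noxa, fell by 0.99 (SE 0.16, adjusted p = 8.47e-05). Of 9 sensors and chaperones of the endoplasmic reticulum 6 rose, the most in Xbp1 (1.05, SE 0.06, adjusted p = 5.92e-10), and 1 fell, Calr (fell by 0.31). Of 26 tested relatives of members, 6 rose and 9 fell, and the share that rose was near that of all genes. The glutamine transporter Slc1a5 rose by 1.69 (SE 0.08, adjusted p = 6.47e-11), while Trib2, a relative of Trib3, fell by 1.08 (SE 0.11, adjusted p = 6.09e-07).

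Markers of other cell types moved with culture too. Platelet markers summed to 21.2 to 45.6 CPM in monocultures and 144 to 236 CPM in fresh cells, with 3 of 4 lower. Dendritic cell markers summed to 2.40 to 5.76 CPM in monocultures and 59.0 to 89.1 CPM in fresh cells, with 4 of 5 lower and Siglech at 0 in both. Red cell precursor markers summed to 141 to 276 CPM in monocultures and 469 to 1009 CPM in fresh cells, with 5 of 6 lower. Their part in the difference of the members was not tested. Panc02 RNA in the monocultures was judged from 67 genes restricted to that line. Their median per library was 0% to 0.335% of the level in cultured Panc02, with upper quartiles up to 0.557%. At the highest median it would add 1.97 CPM to Psat1, the most of any member. Keratin and other Panc02 markers rose, with 4 of 5 higher. They summed to 14.6 to 28.0 CPM in monocultures, 2.46 to 5.00 CPM in fresh cells and 2951 and 2981 CPM in cultured Panc02. The 1.97 CPM is therefore no upper limit, and the part of Panc02 RNA in low members was not tested.

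The co-cultures were compared with cultured Panc02 to ask how the programme of the tumour cells differed beside NK cells, a contrast in which IL-2 and NK contact cannot be told apart. Differences were small. With edgeR's quasi-likelihood test and Benjamini-Hochberg adjustment, 9 of 44 members were higher and 4 lower, and 31 were not called, against 12.2% of all 18172 genes higher and 6.12% lower. The median log2 fold change of the members was 0.00 and that of all genes 0.01. By role, 4 of 7 transcription factors and 3 of 8 transporters were among the higher members.

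Ppp1r15a had 30.2, 33.0, 28.6 and 27.4 CPM in co-cultures, against 19.5 and 20.7 CPM in cultured Panc02 (log2 fold change 0.62, SE 0.08, adjusted p = 3.31e-06). Atf3 had 7.55, 8.50, 6.67 and 6.55 CPM in co-cultures, against 4.80 and 5.25 CPM in cultured Panc02 (0.59, SE 0.14, adjusted p = 0.00569). Nupr1 had 22.6, 28.1, 27.7 and 22.1 CPM in co-cultures, against 17.3 and 17.5 CPM in cultured Panc02 (0.58, SE 0.10, adjusted p = 0.000268). All co-cultures lay above both Panc02 libraries for these 3 genes. Slc7a11 had 70.6, 65.2, 61.3 and 65.4 CPM in co-cultures, against 50 and 54.5 CPM in cultured Panc02 (0.38, SE 0.06, adjusted p = 4.5e-05). Cebpb had 107, 88.0, 75.9 and 85.5 CPM in co-cultures and 77.7 and 74.4 CPM in cultured Panc02, and here the groups overlapped (0.28, SE 0.07, adjusted p = 0.0116). Atf4 itself had 372, 403, 358 and 372 CPM in co-cultures and 350 and 341 CPM in cultured Panc02, a small but called difference (0.17, SE 0.04, adjusted p = 0.00278). Slc3a2 (0.20), Slc38a2 (0.19) and Wars1 (0.16) were called with differences of that size.

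Lower members were led by Cth, which had 3.30, 4.70, 3.78 and 5.15 CPM in co-cultures and 8.45 and 7.60 CPM in cultured Panc02 (log2 fold change -0.87, SE 0.17, adjusted p = 0.00086). Aldh1l2 had 5.37, 5.92, 6.02 and 7.22 CPM in co-cultures and 10.3 and 10.7 CPM in cultured Panc02 (-0.72, SE 0.13, adjusted p = 0.000348). Gpt2 had 33.2, 32.7, 31.5 and 32.3 CPM in co-cultures and 41.8 and 39.3 CPM in cultured Panc02 (-0.27, SE 0.06, adjusted p = 0.00376). For all 3 enzymes every co-culture lay below both Panc02 libraries. Slc7a5 had 271, 255, 275 and 279 CPM in co-cultures and 314 and 303 CPM in cultured Panc02, again without overlap (-0.14, SE 0.04, adjusted p = 0.00782).

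Other members central to the programme were not called here. Trib3 had 18.6, 16.7, 19.4 and 17.3 CPM in co-cultures and 19.0 and 21.1 CPM in cultured Panc02 (-0.11, SE 0.09, adjusted p = 0.454). Chac1 differed by -0.06 (SE 0.09, adjusted p = 0.728), Ddit3 by 0.08 (SE 0.09, adjusted p = 0.597), Asns by -0.04 (SE 0.04, adjusted p = 0.56) and Psat1 by 0.04 (SE 0.03, adjusted p = 0.452). NK RNA at the measured shares would move the level of a member by -8.21 (Psat1) to 15.9 CPM (Slc7a5). For Atf4 it would add 7.59 CPM to the level of cultured Panc02, where 30.4 CPM more were observed in co-cultures. Slc7a11 is almost absent from NK cells, which would take away 1.26 CPM, where 13.3 CPM more were observed. For Slc7a5, 38.4 CPM less were observed, and for Ddit3 it would add 1.5 CPM, where 0.425 CPM more were observed. The part of NK RNA in the calls was not tested.

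Several calls were lost when either cultured Panc02 library was left out, at little changed log2 fold changes. Without Panc02 library 1, these were Atf3 (0.52, adjusted p = 0.108), Cebpb (0.31, 0.094), Gpt2 (-0.23, 0.116), Slc7a5 (-0.12, 0.167) and Wars1 (0.18, 0.0707). Without Panc02 library 2, they were Atf4 (0.16, adjusted p = 0.0656), Cebpb (0.25, 0.153) and Wars1 (0.15, 0.106). Calls over all genes also fell, to 1170 higher and 357 lower without library 1 and 1442 and 492 without library 2, against 2212 and 1113 with both. Outside the members, 13 of 109 tested genes were higher and 9 lower, against 12.2% of all genes higher and 6.12% lower. Slc38a1, a neutral amino acid transporter that NK cells express at 294 to 332 CPM in monoculture, had 10.7, 13.7, 7.57 and 5.47 CPM in co-cultures and 0.939 and 1.21 CPM in cultured Panc02. The mitochondrial synthetase Lars2 had 422 to 515 CPM in co-cultures and 89.2 and 89.8 CPM in cultured Panc02. It stood alone: of 17 mitochondrial synthetases 1 was called higher and 1 lower, with a median log2 fold change of -0.01. Gadd45b rose by 0.60 (SE 0.09, adjusted p = 6.63e-05) and Gadd45a fell by 0.52 (SE 0.08, adjusted p = 6.41e-05).

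Allografts against cultured Panc02 describes the programme of tumours grown in a host. The counts of all allografts were deposited apart from those of cultured Panc02. A difference in handling between these 2 parts, if any, cannot be told apart from growth in a host. Of the 44 members 4 were higher, 29 lower and 11 not called, against 38.8% of all 23264 genes higher and 23.3% lower, 62.1% together. The median log2 fold change was -0.93 for the members and 0.42 for all genes. Serine and one-carbon enzymes (5 of 6 lower), transporters (7 of 8), synthetases (7 of 8) and feedback genes (6 of 8) made up most of the lower members, while of the 7 transcription factors 1 was lower and 2 were higher. Allograft RNA also comes from host cells. A set of 67 genes had at least 20 CPM in cultured Panc02 and at most 0.05 CPM in fresh NK cells. In allografts these stood at 27.6% to 43.7% of their level in culture (median per library), a median log2 fold change of -1.31. Of the members, 16 were lower than that. Macrophages, fibroblasts and muscle were not used to choose the 67 genes, so host cells may express some of them. Their level is therefore no measure of the tumour share. Macrophage markers summed to 1766 to 3150 CPM in allografts and 16.1 and 16.6 in cultured Panc02, with 6 of 6 higher, and C1qa, C1qb and Adgre1 were at 0 in the line. Fibroblast markers summed to 4535 to 14629 CPM in allografts, with 4 of 4 higher, and to 0.902 and 0.982 CPM in cultured Panc02. Skeletal muscle markers reached 27893 CPM in an allograft and 1.16 CPM in cultured Panc02. The part of host cells in each difference was not tested.

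Psat1 ran from 72.3 to 124 CPM in allografts with a median of 98.8, against 584 and 590 CPM in cultured Panc02 (log2 fold change -2.48, SE 0.11, adjusted p = 6.59e-08). Asns ran from 15.5 to 32.9 CPM with a median of 21.2, against 122 and 121 CPM in cultured Panc02 (-2.37, SE 0.24, adjusted p = 1.33e-05). Shmt2 ran from 69.4 to 96.4 CPM with a median of 80.4, against 359 and 352 CPM in cultured Panc02 (-2.05, SE 0.13, adjusted p = 4.45e-07). All 8 allografts lay far below both cultured libraries for these enzymes of serine, glycine and asparagine. Slc7a11 ran from 1.80 to 7.40 CPM with a median of 3.92, against 50 and 54.5 CPM in cultured Panc02 (-3.48, SE 0.41, adjusted p = 4.88e-05). Cth, the enzyme of cysteine synthesis, ran from 0.0475 to 0.590 CPM with a median of 0.379, against 8.45 and 7.60 CPM in cultured Panc02 (-4.54, SE 0.55, adjusted p = 4.21e-05). Both genes were lower in all 8 allografts, unlike Cbs, the other enzyme of cysteine synthesis, which is described with the higher members. Slc6a9 (-2.02), Slc7a5 (-1.97) and Slc7a1, a carrier of cationic amino acids (-1.93), were lower as well, whereas the heavy chain Slc3a2 differed by -0.62 (SE 0.13, adjusted p = 0.00161).

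Trib3 ran from 3.25 to 7.88 CPM in allografts with a median of 6.39, against 19.0 and 21.1 CPM in cultured Panc02 (-1.64, SE 0.28, adjusted p = 0.000415). Chac1 ran from 4.26 to 12.3 CPM with a median of 6.49, against 21.1 and 18.4 CPM in cultured Panc02 (-1.45, SE 0.31, adjusted p = 0.00211). Atf4 ran from 161 to 313 CPM with a median of 200, against 350 and 341 CPM in cultured Panc02 (-0.64, SE 0.19, adjusted p = 0.0146), without overlap. Ddit3 ran from 9.57 to 19.1 CPM with a median of 14.9, against 15.4 and 15.2 CPM in cultured Panc02, and its groups overlapped (-0.01, SE 0.24, adjusted p = 0.965). The other members not called were Atf5, Cebpb, Cebpg, Ddit4, Ppp1r15a, Aldh1l2, Pycr1, Gpt2, Slc7a3 and Wars1.

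The 4 higher members were of different roles. Nupr1 ran from 48.2 to 137 CPM in allografts with a median of 69.1, against 17.3 and 17.5 CPM in cultured Panc02 (2.17, SE 0.34, adjusted p = 0.000289). Atf3 ran from 7.73 to 17.2 CPM with a median of 11.7, against 4.80 and 5.25 CPM in cultured Panc02 (1.35, SE 0.28, adjusted p = 0.00173). Bcat1 ran from 5.42 to 22.7 CPM with a median of 11.9, against 0.0854 CPM and no read in cultured Panc02 (8.17, SE 1.20, adjusted p = 0.00026). None of these 3 overlapped between groups. Cbs ran from 0.383 to 33.5 CPM with a median of 8.18, against 0.576 and 0.522 CPM in cultured Panc02, and 1 allograft lay below both cultured libraries (3.92, SE 1.24, adjusted p = 0.0213). Bcat1 and Cbs were all but silent in cultured Panc02, so their reads in allografts may come from either tumour or host cells, which cannot be told apart. Nupr1 and Atf3 were also among the higher members of the co-cultures, but both comparisons use the same 2 cultured Panc02 libraries.

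**Figure D3:**
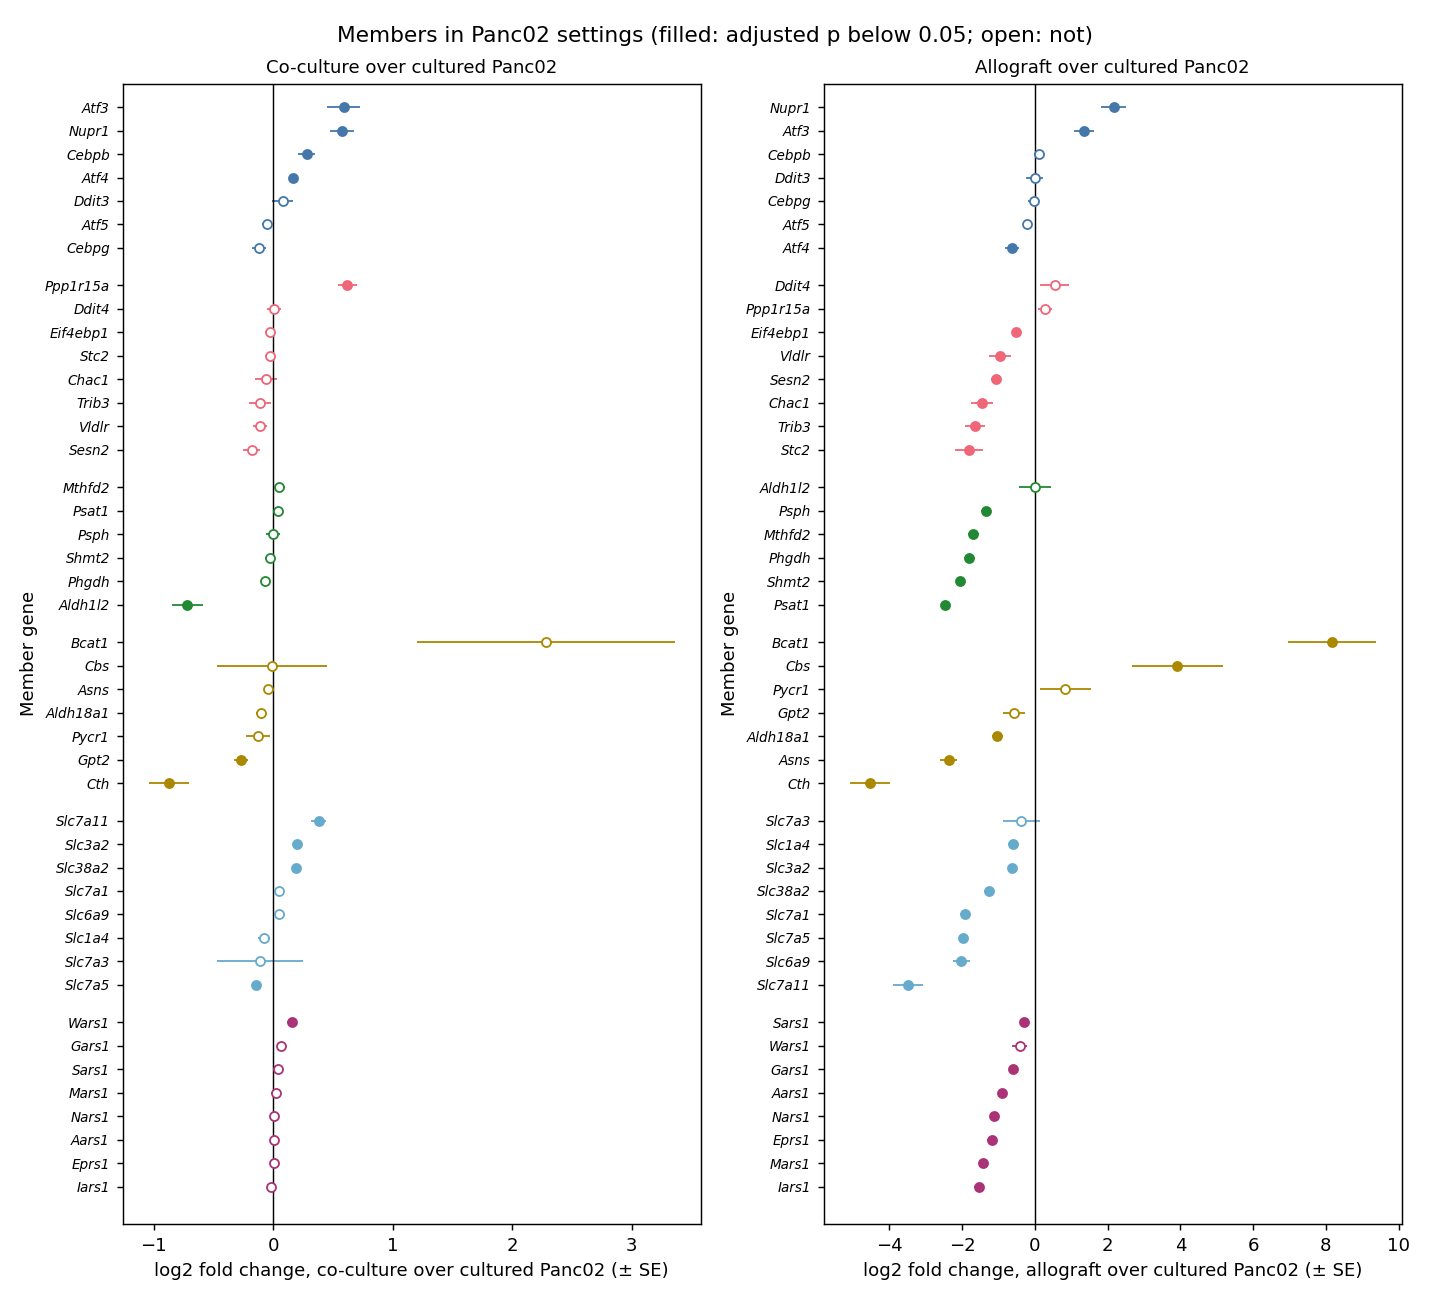
Log2 fold change of each member, with its standard error, in co-cultures over cultured Panc02 (left) and in allografts over cultured Panc02 (right), grouped and coloured by role and filled where adjusted p was below 0.05. On the left most members lie within 0.3 of 0, and on the right most serine, transporter and synthetase genes lie below 0.

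**Figure D4:**
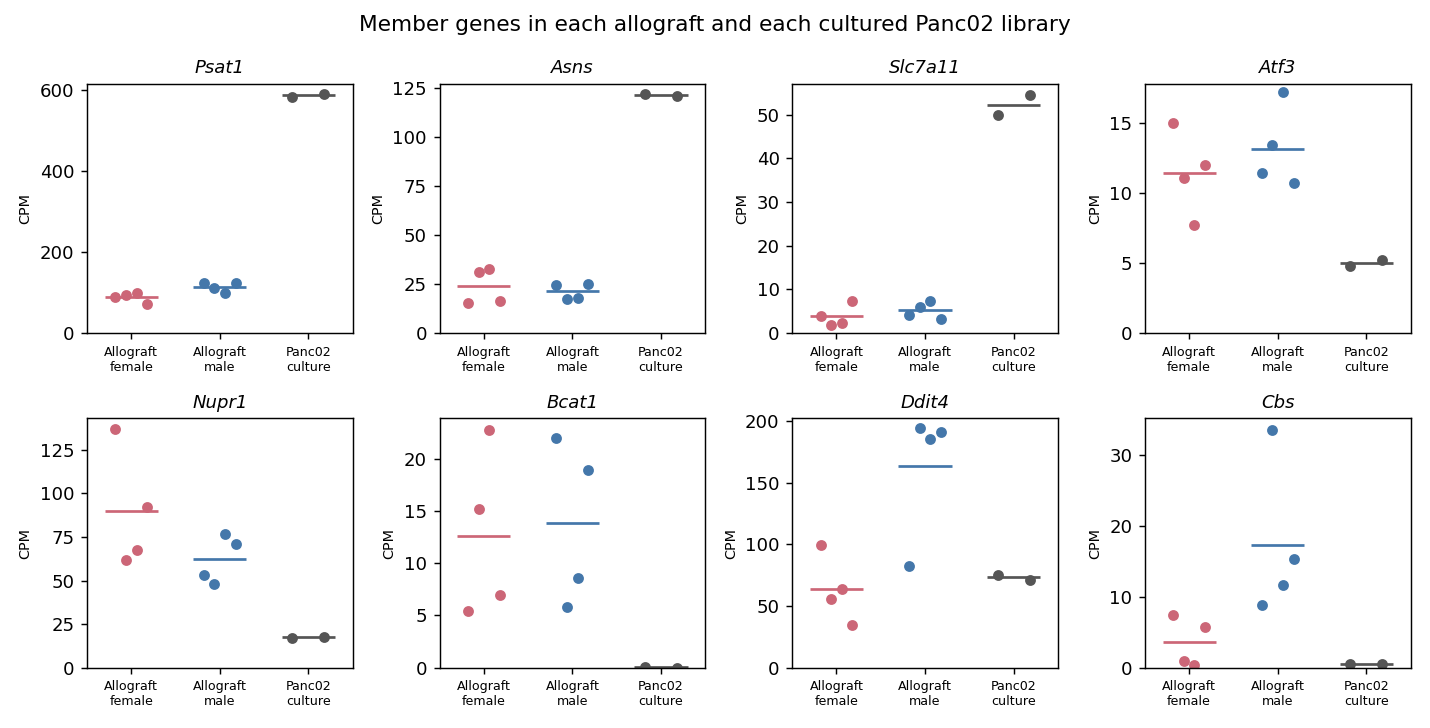
CPM of 8 members in each allograft (female and male hosts) and each cultured Panc02 library; each point is a library and each line a group mean. Psat1, Asns and Slc7a11 are lower in all 8 allografts, Nupr1, Atf3 and Bcat1 are higher in all 8, and Ddit4 and Cbs spread widely among them.

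A few of the allograft calls were sensitive. Cbs lost its call without either cultured Panc02 library (adjusted p = 0.129 without library 1, 0.133 without library 2) and with no filter on low counts (0.0701). Atf4 (0.0866 without library 1, 0.0766 without library 2), Vldlr (0.0807, 0.111) and Sars1 (0.121, 0.143) lost theirs as well, Slc1a4 did so without library 2 (0.0554), and Sars1 also without the 3 muscle-rich allografts (0.0707). Outside the members 30 of 113 genes were higher and 60 lower, against 38.8% of all genes higher and 23.3% lower. Among other cytosolic synthetases 14 of 15 were lower, with Tars1 (-1.57, SE 0.09, adjusted p = 2.85e-07) and Cars1 (-1.53, SE 0.12, adjusted p = 2.07e-06) in front. Mitochondrial synthetases were lower in 12 of 17 cases and higher in 2, with Vars2 the lowest (-2.53, SE 0.13, adjusted p = 1.14e-07). Of the known ATF4 or CHOP targets outside the list 9 of 20 were higher and 4 lower. Together this was 65.0%, near the 62.1% of all genes. Ndrg1, a gene known for its response to low oxygen, differed by 3.00 (SE 0.48, adjusted p = 0.000472) and Pmaip1 by 2.00 (SE 0.32, adjusted p = 0.000283). The death receptor gene Tnfrsf10b differed by -1.82 (SE 0.17, adjusted p = 6.22e-06) and Xpot, which exports transfer RNA from the nucleus, by -1.70 (SE 0.12, adjusted p = 8.96e-07).

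Sex of the donor, the question of the series, touched some members in fresh NK cells. In female against male fresh cells 3 of 43 members were higher and 6 lower, against 4.03% of all genes higher and 4.57% lower, 8.59% together. Ddit3 had 38.6 and 39.1 CPM in fresh female cells (samples 1 and 2) and 22.3 and 26.1 CPM in fresh male cells (samples 4 and 5), a log2 fold change of 0.66 (SE 0.11, adjusted p = 0.00243). Sars1, the serine synthetase, had 185 and 171 CPM in fresh female cells and 121 and 123 CPM in fresh male cells (0.53, SE 0.08, adjusted p = 0.0012). Atf5 had 18.1 and 12.4 CPM in fresh female cells and 10.8 and 10.6 CPM in fresh male cells (0.54, SE 0.14, adjusted p = 0.0316). Female and male libraries did not overlap for these 3 genes, but the Atf5 difference came mainly from female sample 1.

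Members lower in female fresh cells included 3 transporters. Slc6a9 had 0.900 and 0.768 CPM in fresh female and 1.70 and 1.72 CPM in fresh male cells, and Slc1a4 had 1.13 and 1.38 CPM in fresh female and 2.55 and 2.23 CPM in fresh male cells. Both are near the bottom of the measured range in fresh cells (-1.0, SE 0.24, adjusted p = 0.0191 for Slc6a9, and -0.99, SE 0.20, adjusted p = 0.00709 for Slc1a4). Ddit4 had 87.9 and 70.0 CPM in fresh female and 120 and 178 CPM in fresh male cells (-0.93, SE 0.19, adjusted p = 0.0292). Eif4ebp1 had 31.5 and 32.2 CPM in fresh female and 43.8 and 44.9 CPM in fresh male cells (-0.50, SE 0.12, adjusted p = 0.0213). Asns had 36.3 and 46.1 CPM in fresh female and 54.6 and 54.4 CPM in fresh male cells (-0.43, SE 0.12, adjusted p = 0.0325), and Slc38a2 differed by -0.37 (SE 0.08, adjusted p = 0.013). Every male library lay above every female one for these 6 genes.

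Ddit3 and Sars1 kept their calls whichever library was left out, and the other 7 did not. Without fresh female library 1, adjusted p was 0.717 for Atf5, 0.113 for Ddit4, 0.112 for Eif4ebp1, 0.209 for Asns, 0.0539 for Slc38a2, 0.127 for Slc1a4 and 0.104 for Slc6a9. Without fresh male library 4, Atf5 (0.128), Eif4ebp1 (0.056), Asns (0.0973), Slc38a2 (0.105) and Slc6a9 (0.0502) lost their calls, and without fresh male library 5 Atf5 (0.157), Eif4ebp1 (0.098), Asns (0.116) and Slc6a9 (0.0934) did. Eif4ebp1 also did so without fresh female library 2 (0.0508). Ddit4 was lost without fresh female library 2 (0.129) or without any 1 of the 4 monocultures (0.079 to 0.093). Neutrophil markers summed to 17.4 and 45.3 CPM in fresh female and 115 and 305 CPM in fresh male cells, with 0 of 5 called. Dendritic cell markers summed to 77.0 and 89.1 CPM in fresh female and 59.0 and 61.7 CPM in fresh male cells, with 1 of 5 higher. Red cell precursor markers summed to 770 and 1009 CPM in fresh female and 469 and 930 CPM in fresh male cells, with overlap, and 2 of 6 were called lower in female cells. T cell markers summed to 16.7 and 20.1 CPM in fresh female and 9.03 and 10.1 CPM in fresh male cells, with 0 of 5 called. Their part in the sex differences was not tested.

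After culture no difference between the sexes was detected among the members. None of the 43 members was called between female and male monocultures by edgeR, 0 had an unadjusted p below 0.05, and DESeq2 called 0, where edgeR called 0.0764% of all genes, 0.0306% higher and 0.0459% lower. Ddit3 had 72.6 and 76.5 CPM in female and 74.3 and 84.2 CPM in male monocultures (-0.11, SE 0.10, adjusted p = 0.975). Sars1 had 497 and 491 CPM in female and 477 and 501 CPM in male monocultures (-0.01, SE 0.08). A p that misses the threshold does not show equal levels, and the standard errors bound a difference only loosely for low genes such as Cth (SE 0.84).

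The difference of the culture effect between sexes, tested as an interaction, was called for 3 members, 1 larger and 2 smaller in female cells, against 0.479% of all genes larger and 1.17% smaller, 1.65% together. Ddit3 was 1.92-fold higher in culture in female cells and 3.28-fold in male cells (interaction -0.77 on the log2 scale, SE 0.15, adjusted p = 0.0194). Sars1 was 2.77-fold higher in female and 4.02-fold in male cells (-0.54, SE 0.11, adjusted p = 0.0208). Slc1a4 was 76.4-fold higher in female and 36.4-fold in male cells (1.11, SE 0.22, adjusted p = 0.0221). In all 3 the sexes differed in fresh cells and lay close together after culture. Each of the 3 calls was lost without fresh female library 1 (adjusted p = 0.0805 for Ddit3, 0.133 for Sars1, 0.127 for Slc1a4) and without fresh male library 4 (0.0658, 0.0654, 0.0629 in that order). Ddit3 and Sars1 also lost theirs without female monoculture 1 (0.0536, 0.051) and male monoculture 5 (0.0752, 0.0732), Sars1 without fresh male library 5 (0.0652) and Slc1a4 without female monoculture 2 (0.0502). All 3 were lost without the 2 monocultures with most Panc02 RNA, at -0.74 for Ddit3 (adjusted p = 0.129), -0.52 for Sars1 (0.141) and 1.07 for Slc1a4 (0.122). Over all genes that setting left 1 larger and 2 smaller effects called, against 94 and 229.

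**Figure D5:**
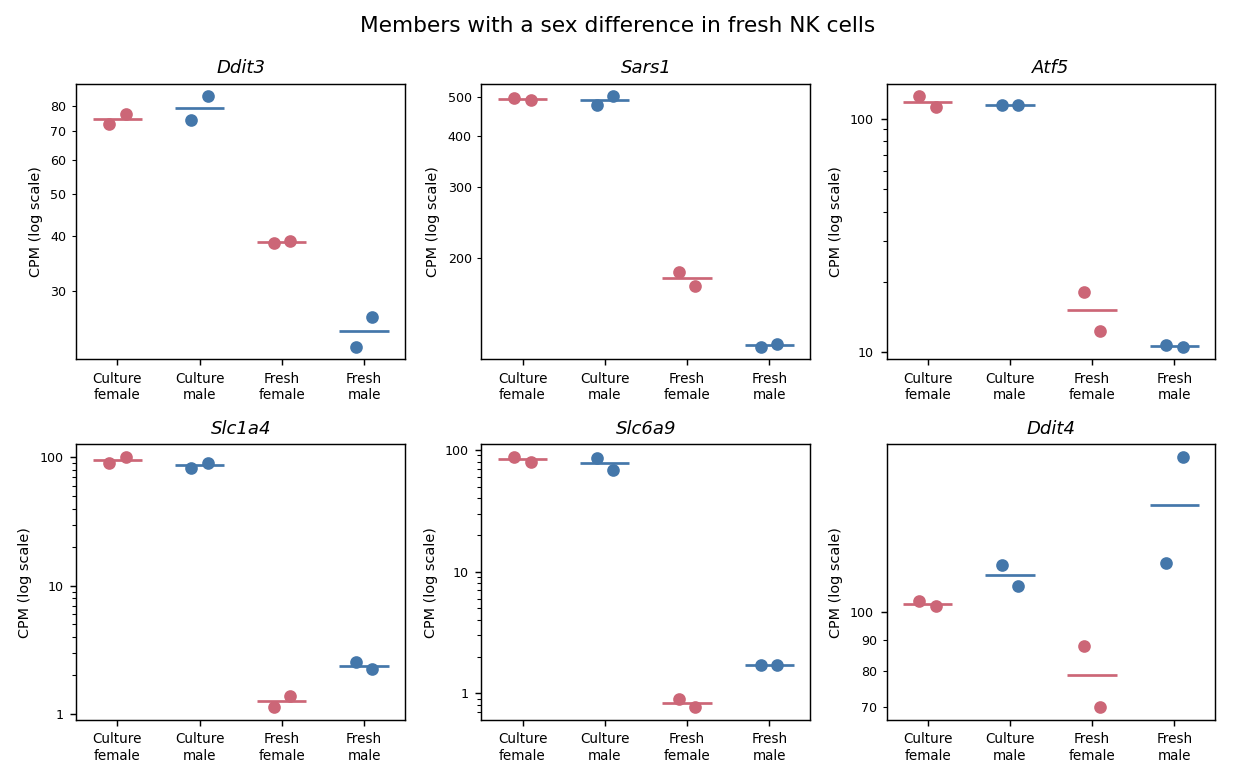
CPM on a log scale of 6 members in monocultured and fresh NK cells of female and male donors; each point is a library and each line a group mean. All 6 were called between the sexes in fresh cells, so that they are apart when fresh follows from their choice. In these genes female and male cells lie closer together after 24 h of culture.

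In co-cultures with female against male NK cells, 0 of 44 members were called by edgeR and 0 by DESeq2, with an unadjusted p below 0.05 for 7, while 1.14% of all genes were called. In allografts of female against male hosts 0 of 44 were called by edgeR, with an unadjusted p below 0.05 for 7, and 0.0146% of all genes were called. DESeq2 called 2 members there, Atf5 higher and Ddit4 lower in female hosts, and 291 higher and 387 lower of all 20560 genes. Ddit4 ran from 35.0 to 99.6 CPM in female hosts and from 82.6 to 194 CPM in male hosts, and the groups overlapped through male allograft 5 alone (-1.33, SE 0.36, adjusted p = 0.202 by edgeR). Atf5 ran from 154 to 180 CPM in female hosts and from 116 to 140 CPM in male hosts, without overlap (0.39, SE 0.11, adjusted p = 0.199 by edgeR).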

How the data were processed

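RNA was sequenced from 22 libraries of mouse NK cells, Panc02 cells and Panc02 allografts in 9 groups. Reads were trimmed with cutadapt 4.4 and aligned with HISAT2 2.2.1 and SAMtools 1.19.2, per the submitters' processing notes. The authors deposited raw counts per gene, made with featureCounts 2.0.6 on GRCm39 with Ensembl 113 exons, reverse strand and multi-mapping reads counted, per the file headers. Mates were counted singly, per the file headers, and 66.4% to 78.6% of low counts were even, so a fragment often counts double and gene families can share reads. Symbols matched 51498 of 78298 gene IDs. The columns of cultured Panc02 lie in the same deposited table as the NK libraries, and those of the allografts in another.

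CPM used the library total, and TPM the exon length. Tests were edgeR 4.0.16 quasi-likelihood fits (R 4.3.3, TMM scaling, filterByExpr, Benjamini-Hochberg over all fitted genes, threshold 0.05) on the NK libraries (8), the co-cultures with cultured Panc02 (6), the allografts with cultured Panc02 (10) and the allografts alone (8). DESeq2 1.42.0, other scaling, no filter, a replicate block, other sample sets and leaving out each library were alternatives. The members and gene lists were chosen with earlier results of these data known, and monoculture against fresh, on which the members were chosen, is given with no p for them. Genes named outside the members were the largest called differences of each list with at least 5 CPM in the higher group, up to 3 per direction. Mthfd1l was named after its value was seen. Some genes that this rule names are not reported here. Replicate numbers did not pair the libraries. Depth was 13025549 to 46842646 counts per library, which limits values under about 1 CPM to few reads.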

Additional observations from a re-analysis of the deposited data

Results flagged for a closer look

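The sex of the donor went with a different culture effect for 3 members in the interaction test between monocultured and fresh NK cells. The difference between the female and the male effect was -0.77 for Ddit3, 1.11 for Slc1a4 and -0.54 for Sars1 on the log2 scale.

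In single groups of 4 allografts, 1 library stood far from the other 3 for 7 members. Among male hosts, allograft 5 had 3.25 CPM of Trib3, where the others had 7.63 to 7.88, and 82.6 CPM of Ddit4, where the others had 185 to 194. Allograft 6 had 210 CPM of Slc38a2, where the others had 148 to 155. Allograft 7 had 24.0 CPM of Mthfd2 (others 35.0 to 36.7), 24.4 CPM of Slc6a9 (others 16.1 to 17.1) and 131 CPM of Nars1 (others 144 to 146). Among female hosts, allograft 4 had 55.5 CPM of Pycr1, where the others had 10.7 to 16.9. Chance gives about 1 such library in 20 groups, and 88 groups of 4 allografts were examined, of which 7 met the limit.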

How the results depend on the processing

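Of 58 called differences of members, 684 of 747 values under the alternatives kept their direction and side of the threshold, 63 lost the call (51 of them by leaving out 1 library) and 0 reversed. For genes of the other lists 2314 of 2466 did so, 152 lost the call and 0 reversed. Members at least 2-fold lower in monocultures numbered 1 with no filter, with all 12 NK and co-culture libraries, or without the 2 monocultures with most Panc02 RNA, settings under which Cbs is fitted. Members lower in female fresh cells numbered 2 with the 4 fresh libraries alone. Members with a larger culture effect in female cells numbered 3 with median-ratio scaling, with all 12 libraries or with the replicate block, 6 with DESeq2 or no filter, and 0 without the 2 monocultures with most Panc02 RNA, where the smaller ones also numbered 0. In female against male co-cultures 1 was higher with no filter, and in allografts DESeq2 gave 1 higher and 1 lower. The cause was not tested.

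Leaving out each library in turn gave 37 to 39 members at least 2-fold higher and 0 to 1 lower in monocultures. In fresh cells it gave 2 to 3 higher and 0 to 6 lower in female cells, in monocultures 0 of both, and for the culture effect 0 to 2 larger and 0 to 3 smaller. In co-cultures it gave 6 to 9 higher and 2 to 5 lower, and between sexes 0 to 1 higher and 0 lower. In allografts it gave 3 to 4 higher and 25 to 31 lower, and between hosts 0 of both. The replicate block gave 39 and 0 members past 2-fold in monocultures against fresh cells and 2 with a smaller culture effect. Library names of fresh, monocultured and co-cultured NK cells share a prefix per sample number, which may mark a common NK preparation. Same-numbered libraries deviated together with correlations of 0.05 (female) and 0.29 (male) between fresh and monocultured cells and at most 0.05 otherwise. With 2 libraries per group these correlations cannot exclude pairs. The main fits took the libraries as unpaired, and only the replicate block used the numbers. The settings without 2 monocultures or without 3 muscle-rich allografts were chosen after seeing the data. Each sex has 2 NK libraries per condition and cultured Panc02 has 2 in all, which limits the sex and tumour comparisons, and depth limits values under about 1 CPM.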
